A study of Mus musculus with 2 samples.

Results

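The genes described here encode the parts of the inflammasome and the pore-forming gasdermins: the sensors Nlrp3, Nlrc4, Aim2 and Nlrp1b, the adaptor Pycard, the inflammatory caspases Casp1 and Casp4, and the gasdermins Gsdmd and Gsdme. They were chosen by symbol, not by their values, but with earlier results of these data known. All 9 symbols were found among the 32285 genes of both matrices. Transcripts were counted in single cells of female BALB/c mice, 7 to 8 weeks old at purchase, whose livers carried metastases of 4T1 cells, a mouse mammary carcinoma line with a luciferase reporter, made by injection into the spleen. Every group had undergone this surgery and an infusion into the hepatic artery, either of the vehicle, of a low dose or of a high dose of CBL0137, a DNA-binding small molecule of the curaxin class. Cells were taken 5 days later, with 2 mice pooled per group. The amounts given as low and high dose are not stated in the sources used here. Hashtag antibodies (A0301 vehicle, A0305 low dose, A0310 high dose) distinguished the 3 groups, which were then mixed in 1 droplet library that the labels call liver and 1 that they call spleen.

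Inflammasomes are cytosolic complexes of the innate immune system. A sensor that detects a microbial product, foreign DNA or cell damage recruits the adaptor Pycard (ASC), which brings caspase-1 molecules together so that they become active. Caspase-1 processes interleukin-1 beta and interleukin-18 and cuts gasdermin D, whose amino-terminal part forms pores in the plasma membrane, and caspase-11 (the product of Casp4 in mice) cuts gasdermin D after binding bacterial lipopolysaccharide. Gasdermin E is another pore former of this family, which can turn apoptosis into a lytic death. Transcript counts do not show whether any of these proteins was cleaved.

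Each group was 1 pooled sample per library, so that there were no replicates, no test could be made, and every interval below covers counting error only, at 95%. Levels are unique molecular identifiers (UMIs, 1 per captured transcript molecule) of a gene, added up across cells of 1 class or cluster. They are for 1 group where a group is named and for all 3 groups together otherwise. Each sum was divided by all UMIs of those cells and expressed as CPM, and levels were not compared between genes. A difference was called when the log2 ratio of CPM was at least 1 in size, that is 2-fold, among genes with at least 20 UMIs over the groups compared. The liver-labelled library held 8435 cells with 1 hashtag and the spleen-labelled library 2988, with a median of 4673 and 3369 UMIs over all barcodes, and 15 barcodes occurred in both. Transcripts of liver cells went against the labels: 9 hepatocyte markers summed to 0.0728 CPM in the liver-labelled library and 85.6 CPM in the spleen-labelled library, 8 Kupffer cell markers to 18.0 and 699 CPM, and 9 endothelial markers to 38.1 and 424 CPM. The libraries are therefore named by their labels throughout, and no direction is drawn between organs. The methods describe cells isolated by CD11b beads while the labels describe leukocytes, and T and B cell-like cells were present in both libraries.

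On the mm10 assembly the members lay on 7 chromosomes. Casp1 (chr9:5298517-5307265) and Casp4 (chr9:5308828-5336783) were neighbours on the plus strand with 1562 bases between them. Nlrp3 occupied chr11:59541568-59566956 on the plus strand and Nlrp1b chr11:71153102-71230733 on the minus strand. Nlrp1b has the near-identical neighbours Nlrp1a and Nlrp1c-ps, so that its counts are uncertain. Pycard (chr7:127989708-127993867, minus strand), Gsdmd (chr15:75862327-75867408, plus), Gsdme (chr6:50188888-50263862, minus), Nlrc4 (chr17:74425438-74459142, minus) and Aim2 (chr1:173350879-173466040, plus) were single loci.

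The sequences before the starts of Nlrp3, Casp1 and Casp4 are shown because Nlrp3 gave the largest difference between groups among the members, while the neighbours Casp1 and Casp4 were highest in different cell classes. They are from RefSeq on GRCm38.p6, the same assembly as mm10, where windows were found for 8 of the 9 members (all except Gsdmd). Each runs 5′ to 3′ on the gene's strand and ends at the base before the annotated start. The capitals mark a match to the NF-kappaB motif, searched as GGG, any 2 bases and TTTCC.
Nlrp3, chr11:59541319-59541567: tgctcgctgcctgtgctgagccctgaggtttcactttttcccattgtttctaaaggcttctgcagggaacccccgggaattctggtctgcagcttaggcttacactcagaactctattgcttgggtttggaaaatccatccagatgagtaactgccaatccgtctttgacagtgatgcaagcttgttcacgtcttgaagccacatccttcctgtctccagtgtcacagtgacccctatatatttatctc
Casp1, chr9:5298267-5298516: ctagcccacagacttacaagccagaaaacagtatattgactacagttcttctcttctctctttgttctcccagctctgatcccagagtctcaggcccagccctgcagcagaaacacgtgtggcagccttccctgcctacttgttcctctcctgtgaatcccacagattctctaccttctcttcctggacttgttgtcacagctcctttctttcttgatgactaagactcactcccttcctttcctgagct
Casp4, chr9:5308599-5308827: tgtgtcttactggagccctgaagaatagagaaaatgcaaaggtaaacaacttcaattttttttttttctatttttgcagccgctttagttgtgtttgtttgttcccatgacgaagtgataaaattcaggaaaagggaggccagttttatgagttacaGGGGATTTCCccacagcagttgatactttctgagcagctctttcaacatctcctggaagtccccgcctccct
The match in the Casp4 window began 93 bases before the RefSeq start, and the search of its 250 bases found a further match on the minus strand at 14 bases before that start, past the end of the stretch shown. The kappaB motif on either strand was present in 464 of 32851 windows of this length (1.41%), the interferon response core (TTTC, any 2 bases, TTTC) in 978 (2.98%) and the palindromic GAS motif (TTC, any 3 bases, GAA) in 2306 (7.02%). No other member's window held any of these motifs. A match is a description of letters and does not show binding.

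Clusters were named from lists of marker genes, with the members and related genes left out of the variable features, and classes carry the suffix "-like". Neutrophil-like cells were the largest class in both libraries, with 2921 and 977 cells, and held 39.5% and 20.9% of the UMIs of each library. Orders of classes are given over all 3 groups together for named classes of at least 50 cells, and smaller or unnamed ones are added where they stood higher. The mix of groups differed between classes. In the spleen-labelled library 6 of 70 Kupffer cell-like cells were vehicle cells, and 41 of 60 4T1 tumor cell-like cells were high dose cells. Different patterns of expression were seen across classes. Casp4 and Gsdme were highest in neutrophil-like cells, which also held most Nlrp3 UMIs of the liver-labelled library. Pycard, Casp1 and Gsdmd were highest in monocyte-like cells and spread widely. Aim2 and Nlrc4 were low in neutrophil-like cells. Aim2 was higher in lymphocytes and in dendritic cell-like, monocyte-like and Kupffer cell-like cells. Nlrc4 was higher in B cell-like, Kupffer cell-like and monocyte-like cells and in macrophage-like cells of the spleen-labelled library, but not in T cell-like cells.

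**Figure D1:**
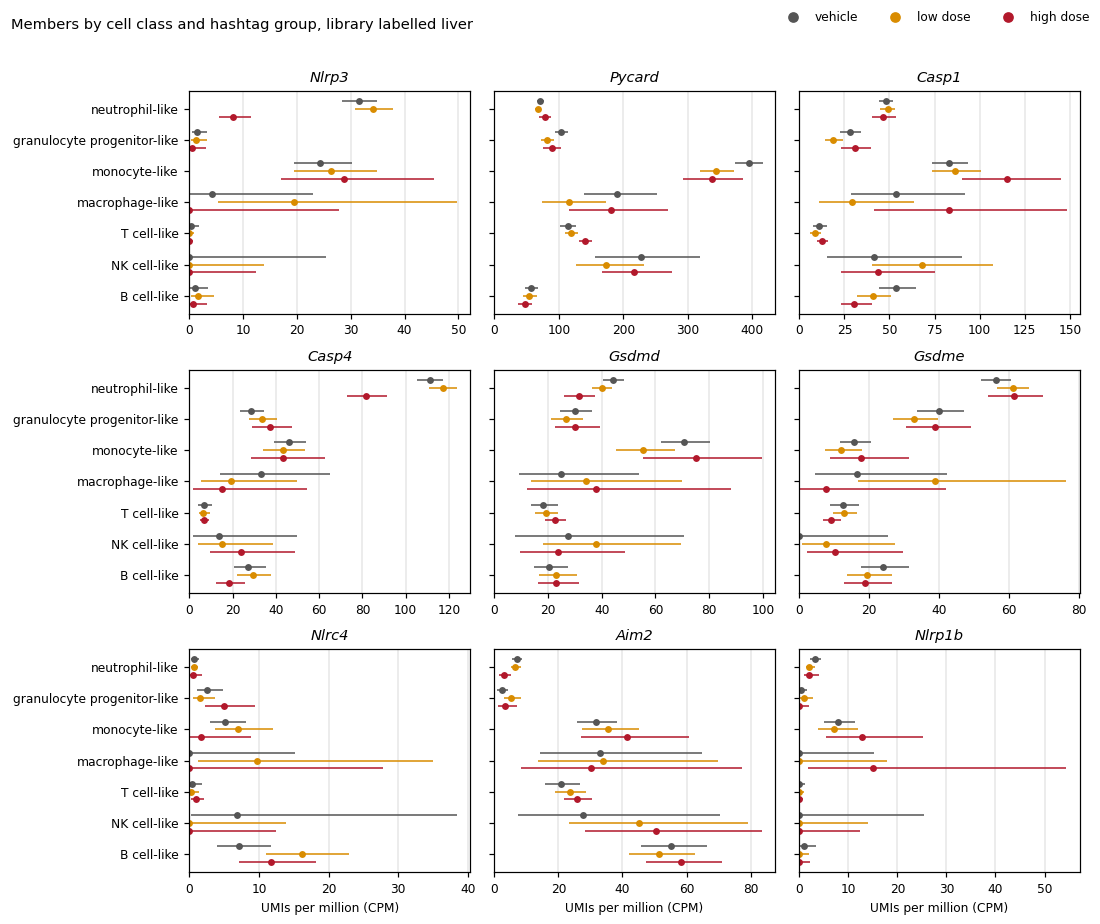
Level of each gene (CPM, horizontal axis, own scale per panel) by cell class and hashtag group in the liver-labelled library. Classes of at least 50 cells are drawn, except stem or progenitor-like and unnamed cells. Each point is 1 pooled sample of at least 20 cells, and the bars are exact 95% Poisson intervals. When only vehicle points of the classes drawn are compared, Nlrp3, Casp4 and Gsdme stand highest in neutrophil-like cells and Pycard, Casp1 and Gsdmd in monocyte-like cells. Cluster 5, which has the highest Nlrp3 level of the neutrophil-like clusters, counts as neutrophil-like only with the naming reference used here. The high dose point of Nlrp3 in neutrophil-like cells lies at 8.10 CPM.

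**Figure D2:**
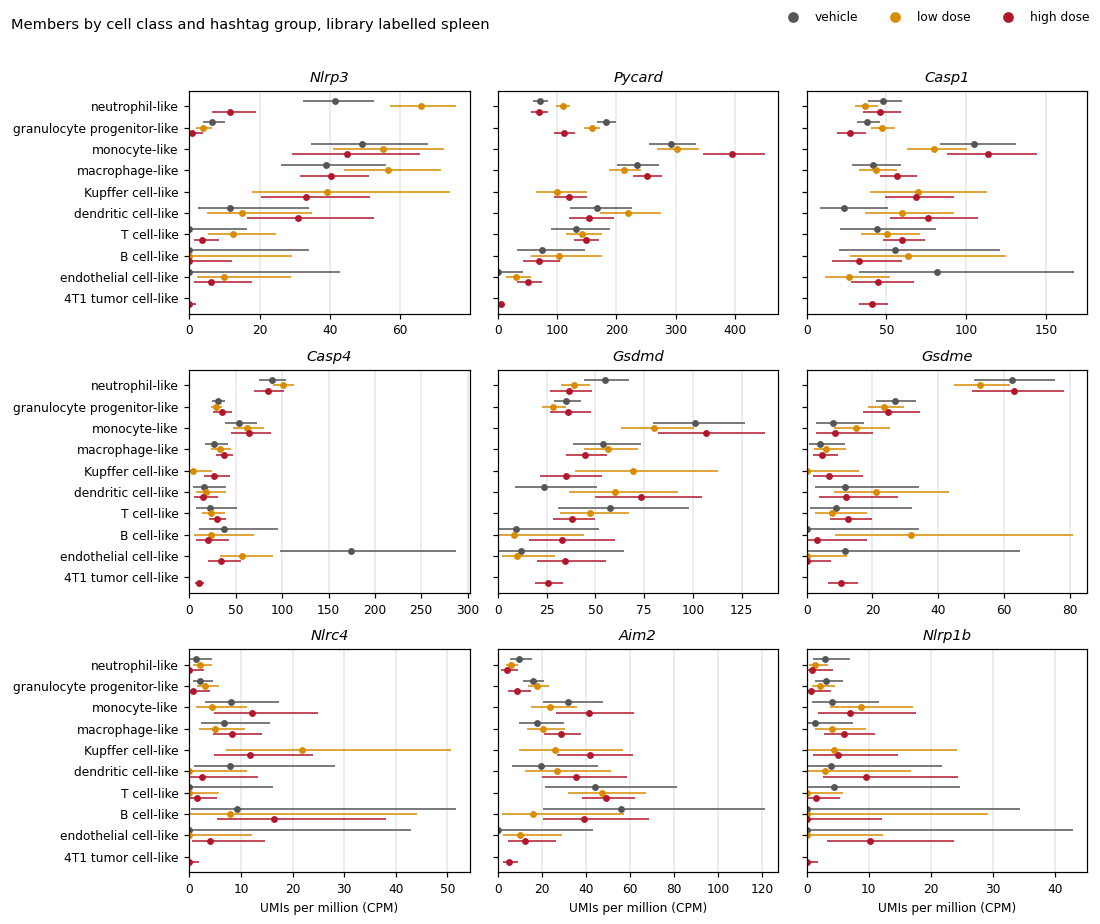
Level of each gene (CPM, horizontal axis, own scale per panel) by cell class and hashtag group in the spleen-labelled library, with exact 95% Poisson intervals as bars. Classes of at least 50 cells are drawn, except hepatocyte-like and unnamed cells. Vehicle levels of Nlrp3 are 49.3 CPM in monocyte-like, 41.6 CPM in neutrophil-like and 39.0 CPM in macrophage-like cells, and the high dose point of neutrophil-like cells lies at 11.5 CPM.

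Nlrp3, the sensor of ion flux and membrane damage, was at 29.2 CPM (27.2 to 31.3) in neutrophil-like and 25.5 CPM (21.5 to 29.9) in monocyte-like cells of the liver-labelled library, levels whose intervals overlapped. The small dendritic cell-like class reached a similar level, 30.8 CPM (17.2 to 50.8) from 15 UMIs in 44 cells, and 23 basophil or mast cell-like cells had 5 UMIs (21.1 CPM). Macrophage-like cells had 8.60 CPM from 5 UMIs, and T cell-like cells had 1 UMI in 2472 cells (0.0787 CPM). Neutrophil-like cells thus held 790 of the 1006 Nlrp3 UMIs of that library. Monocyte-like (50.5 CPM), neutrophil-like (47.1), macrophage-like (45.5) and Kupffer cell-like cells (34.3, 30 UMIs) of the spleen-labelled library could not be told apart by their intervals, and 87 cells of unnamed clusters had 67.8 CPM (13 UMIs). No Nlrp3 UMI was found in 60 4T1 tumor cell-like cells, which allows up to 1.19 CPM, nor in 131 B cell-like cells, which allows up to 5.55 CPM.

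Aim2, the sensor of cytosolic DNA, had another order. It was highest in the 44 dendritic cell-like cells of the liver-labelled library, at 96.5 CPM (70.9 to 128) from 47 UMIs. B cell-like cells (54.9 CPM, 314 UMIs) and NK cell-like cells (43.9 CPM, 31 UMIs) came next. Monocyte-like (33.9 CPM, 197 UMIs), macrophage-like (32.7 CPM, 19 UMIs) and stem or progenitor-like cells (28.5 CPM) followed, above T cell-like cells with 23.9 CPM. Neutrophil-like cells had 6.24 CPM (5.33 to 7.25), and in vehicle cells the log2 ratio of neutrophil-like to B cell-like cells was -2.99 (-3.41 to -2.57). No cluster of the spleen-labelled library was named NK cell-like, and 201 of its 317 T cell-like cells were in cluster 4. This cluster was led by Gzma, Ccl5, Gzmb, Nkg7, Prf1 and Cd3g, of which Gzma and Prf1 are also on the NK cell marker list. T cell-like (47.9 CPM), Kupffer cell-like (40.03) and B cell-like cells (37.0) of the spleen-labelled library had overlapping intervals. Monocyte-like (31.0 CPM), dendritic cell-like (28.7) and macrophage-like cells (23.6) of that library came after them. Higher values with wide intervals were found in 25 plasmacytoid dendritic cell-like cells (59.4 CPM, 29.7 to 106, 11 UMIs) and in the unnamed cells (62.5 CPM, 12 UMIs), while neutrophil-like cells had 6.42 CPM.

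Nlrc4, which assembles with Naip proteins on bacterial flagellin and secretion system parts, was rare, with 164 and 97 UMIs in all cells of the libraries labelled liver and spleen. B cell-like cells carried 66 of the 164 UMIs at 11.5 CPM (8.93 to 14.7), above monocyte-like cells at 5.34 CPM, and the dendritic cell-like class had 12.3 CPM from 6 UMIs. Kupffer cell-like cells (13.7 CPM, 12 UMIs) and B cell-like cells (12.96 CPM, 7 UMIs) led among the named classes of the spleen-labelled library, beside 3 UMIs in the unnamed cells (15.6 CPM). Monocyte-like (7.54 CPM, 17 UMIs) and macrophage-like cells (6.86 CPM, 25 UMIs) of that library followed, with intervals that overlapped those of the leading classes. Neutrophil-like cells stood at 0.627 and 1.35 CPM and T cell-like cells at 0.551 CPM (7 UMIs) and 0.895 CPM (2 UMIs). Nlrp1b, the sensor of anthrax lethal toxin in responsive strains such as BALB/c, had 146 and 78 UMIs in all. Monocyte-like cells had 8.09 and 6.65 CPM and neutrophil-like cells 2.55 and 1.69 CPM. The dendritic cell-like class of the liver-labelled library had 10.3 CPM from 5 UMIs and the unnamed cells of the spleen-labelled library 10.4 CPM from 2, with intervals that held the monocyte-like levels. The low numbers of UMIs for these sensors allow only large differences between groups to be seen.

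Pycard, the adaptor, was highest in monocyte-like cells, at 372 CPM (357 to 388) in the liver-labelled library and 324 CPM (300.6 to 348) in the spleen-labelled library. Every class with at least 50 cells had Pycard UMIs. Neutrophil-like cells came next to last of 8 classes in the liver-labelled library (70.8 CPM), and in vehicle cells the log2 ratio to monocyte-like cells was -2.47 (-2.59 to -2.34). Neutrophil-like cells of the spleen-labelled library had 89.4 CPM, below macrophage-like (236) and dendritic cell-like cells (179). 4T1 tumor cell-like cells had the lowest level, 4.76 CPM from 12 UMIs.

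Casp1, the caspase that cuts the interleukin-1 beta precursor, was also highest in monocyte-like cells (87.5 CPM, 80.0 to 95.4, and 97.1 CPM, 84.7 to 111). Its levels in neutrophil-like cells, 48.2 and 42.1 CPM, had intervals that overlapped those of macrophage-like cells in both libraries. T cell-like cells had 10.9 CPM in the liver-labelled library but 55.5 CPM (46.2 to 66.2) in the spleen-labelled library. In contrast to Pycard, Casp1 was at 45.6 CPM (115 UMIs) in 4T1 tumor cell-like cells, within the range of the leukocyte classes.

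Casp4, the lipopolysaccharide receptor of the non-canonical pathway, was highest in neutrophil-like cells, with 109 CPM (105 to 113) and 93.9 CPM (86.3 to 102). Monocyte-like cells followed with 44.8 and 59.4 CPM, and the intervals did not overlap. Endothelial cell-like cells of the spleen-labelled library had 55.6 CPM over all groups. Their 34 vehicle cells, with only 85989 UMIs of all genes, had 174 CPM. That value was above the neutrophil-like level of every group in that library (101 CPM at most), so the order given holds over all groups together. In the liver-labelled library the neutrophil-like class held 2963 of 3898 Casp4 UMIs, against 1306 of 2717 for its neighbour Casp1.

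Gsdmd, the pore former cut by both caspases, was highest in monocyte-like cells (66.3 and 94.0 CPM). Neutrophil-like cells had 40.6 and 42.9 CPM, and 4T1 tumor cell-like cells 25.4 CPM. Gsdme, a pore former of the same family, was highest in neutrophil-like cells, at 59.0 CPM (56.1 to 62.0) and 57.8 CPM (51.8 to 64.2). Granulocyte progenitor-like cells were next for Gsdme with 37.1 and 25.0 CPM, whereas monocyte-like cells had 14.6 and 11.1 CPM. Both gasdermins thus had different orders of cell classes in both libraries, Gsdmd with a maximum in monocyte-like cells and Gsdme with one in the neutrophil series. The hepatocyte-like cluster was led by mitochondrial transcripts and held between 0 and 6 UMIs of each member.

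The high dose was compared with the vehicle within neutrophil-like cells, of which the vehicle, low and high dose groups had 1431, 1292 and 198 in the liver-labelled library and 296, 570 and 111 in the spleen-labelled library. Nlrp3 was lower at the high dose in both libraries. In the liver-labelled library its level was 31.4 CPM in the vehicle group (379 UMIs), 34.2 CPM at the low dose (379 UMIs) and 8.10 CPM at the high dose (32 UMIs). The high dose stood apart from the other groups, with log2 ratios of -1.96 (-2.53 to -1.44) against vehicle and -2.08 (-2.65 to -1.55) against the low dose. The levels in the spleen-labelled library were 41.6 CPM (70 UMIs), 66.1 CPM (194 UMIs) and 11.5 CPM (15 UMIs), and the log2 ratio of the high dose to the vehicle was -1.85 (-2.76 to -1.03). The high dose interval lay under those of both other groups there too.

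The median log2 ratio of all genes tested at the high dose was -0.38 in the liver-labelled library and -0.07 in the spleen-labelled library, so a shift of many genes accompanied these values in the former. Of 9137 genes tested in the liver-labelled library, 18.0% were at least 2-fold lower at the high dose and 1.05% higher. Among the members 2 of the 8 tested were called lower, Nlrp3 and Aim2, and 0 higher, with a median of -0.47. In the spleen-labelled library 7.01% of 5865 genes were lower and 3.94% higher, and again Nlrp3 and Aim2 were called lower among 7 members tested, with 0 higher and a median of -0.07. The count in the liver-labelled library was close to what the background gives for as many genes, so it is not a result about the members as a set.

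Aim2 had few UMIs in neutrophil-like cells. Its level was 6.97 CPM (84 UMIs), 6.58 CPM (73) and 3.04 CPM (12) for vehicle, low and high dose in the liver-labelled library, a high to vehicle log2 ratio of -1.20 (-2.21 to -0.32). Aim2 had 9.51 CPM (16 UMIs), 5.79 CPM (17) and 3.85 CPM (5) in the spleen-labelled library, and the interval of the ratio reached 0 (-1.30, -3.11 to 0.21). Nlrp1b had 38, 23 and 8 UMIs in the liver-labelled library, with a ratio of -0.64 (-1.95 to 0.48), and Nlrc4 had 8, 7 and 2 UMIs, too few to compare.

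The downstream genes differed less. In neutrophil-like cells of the liver-labelled library Pycard was at 71.4 CPM (vehicle), 67.8 CPM (low dose) and 77.9 CPM (high dose), a log2 ratio of 0.13 (-0.07 to 0.32) between high dose and vehicle. Casp1 stood at 48.0, 48.9 and 46.6 CPM, a ratio of -0.05 (-0.29 to 0.20). Gsdme stood at 56.3, 61.1 and 61.5 CPM, a ratio of 0.13 (-0.09 to 0.34). The intervals of these adaptor, caspase and gasdermin ratios held 0 and lay within 2-fold. They lay above the median ratio of all genes given above, whereas those for the spleen-labelled library held the median given for it. The intervals for the spleen-labelled library also held 0 and lay within 2-fold: -0.05 (-0.46 to 0.36) for Pycard, -0.06 (-0.57 to 0.44) for Casp1 and 0.02 (-0.42 to 0.45) for Gsdme.

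In the liver-labelled library Casp4 and Gsdmd were lower at the high dose by less than 2-fold. Their intervals there held the median ratio of all genes given above. Casp4 was at 111, 117 and 81.7 CPM in the liver-labelled library, a ratio of -0.45 (-0.62 to -0.27). In the spleen-labelled library Casp4 was at 89.1, 101 and 84.6 CPM with a ratio of -0.07 (-0.44 to 0.29), whose interval held 0. Gsdmd was at 44.2, 39.9 and 31.4 CPM in the liver-labelled library, a ratio of -0.50 (-0.79 to -0.21). Gsdmd also had a ratio with an interval under 0 in the spleen-labelled library, where its levels were 54.7, 39.2 and 36.2 CPM and the ratio -0.60 (-1.13 to -0.07).

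At the low dose no member was called in neutrophil-like cells of either library. In the liver-labelled library 0.763% of 9826 genes were called higher and 2.93% lower, and in the spleen-labelled library 2.66% and 2.73% of 6697. All 9 members of the liver-labelled library had low dose intervals that held 0. In the spleen-labelled library Nlrp3 (0.67, 0.27 to 1.08) and Pycard (0.63, 0.32 to 0.94) were higher at the low dose and Gsdmd lower (-0.48, -0.89 to -0.07). The Pycard value rested on 1 cluster, number 12, in which 118 of 122 cells were from the low dose and Pycard was at 280 CPM in those cells. Without that cluster (an alternative added once the values were known) the log2 ratio was 0.05 for Pycard and 0.51 for Nlrp3.

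**Figure D3:**
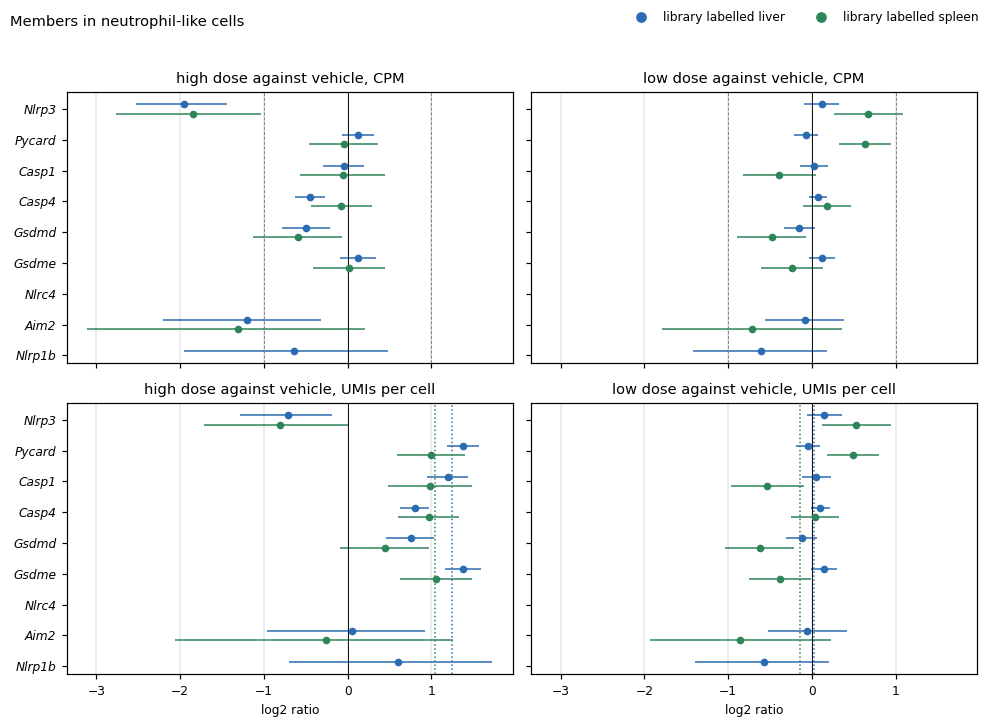
Log2 ratio of each gene to the vehicle in neutrophil-like cells, for the high and the low dose in both libraries, with exact 95% intervals. The upper row uses CPM and the lower row UMIs per cell, dashed lines mark 2-fold and dotted lines the shift that every gene shares from UMIs per cell. Nlrp3 has the lowest high dose ratio of the members with at least 20 UMIs on both scales.

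CPM and UMIs per cell gave different directions for many members, and high dose neutrophil-like cells were deeper. Their median UMIs per cell were 18598 against 4383 in the vehicle group of the liver-labelled library and 11077 against 3434 in the spleen-labelled library. Between the means per cell the depth alone shifted every gene by 1.24 and 1.04 on the log2 scale. In UMIs per cell Nlrp3 was still lower at the high dose in the liver-labelled library, 0.162 against 0.265, a log2 ratio of -0.71 (-1.28 to -0.19). The values in the spleen-labelled library were 0.135 and 0.236, with an interval that just reached 0 (-0.81, -1.72 to 0.01). Per cell, Pycard (1.37 and 1.00), Casp1 (1.20 and 0.98), Casp4 (0.80 and 0.97) and Gsdme (1.37 and 1.06) were higher at the high dose in the libraries labelled liver and spleen. Gsdmd was higher as well, at 0.75 (0.46 to 1.03) and 0.45 (-0.09 to 0.97), and Aim2 was at 0.05 and -0.26 with intervals that held 0. More RNA per cell and a different mix of cells cannot be told apart from these sums.

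The share of neutrophil-like cells with a Nlrp3 UMI was 21.4% in the vehicle group, 23.2% at the low dose and 13.1% at the high dose in the liver-labelled library. After each cell was thinned to 500 UMIs, to remove the difference in depth, the shares were 3.84% (2.91 to 4.97), 4.26% (3.22 to 5.51) and 0.505% (0.0128 to 2.78, 1 of 198 cells). In the spleen-labelled library they were 19.6%, 24.7% and 9.91% before and 4.73% (2.61 to 7.81), 4.74% (3.14 to 6.82) and 1.80% (0.219 to 6.36, 2 of 111 cells) after thinning. T cell-like cells of the liver-labelled library, which should lack the gene, had a Nlrp3 UMI in 0 of 2472 thinned cells, which allows up to 0.121%, at a median depth of 4819 UMIs against 5529 in neutrophil-like cells. The T cell-like share before thinning was 0.0405%. The T cell-like shares in the spleen-labelled library were 1.89% before and 0.631% after thinning, at 4542 against 4333 UMIs. The high dose share after thinning rested on 1 and 2 cells and is given as a value only.

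The groups also differed in the clusters that made up the class. In the liver-labelled library 75.3% of the high dose neutrophil-like cells were in cluster 4, against 15.6% of the vehicle and 16.5% of the low dose cells. Cluster 3 of the spleen-labelled library held 62.2% of the high dose neutrophil-like cells, against 22.3% and 13.3%. Both clusters were led by the stefin genes Stfa3 and Cstdc5 and were deep, with medians of 16059 and 9458 UMIs. The clusters were made with genes that may themselves differ between groups, so these shares are a description.

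Nlrp3 varied widely between those clusters. In the liver-labelled library it was at 124 CPM (107 to 143) in cluster 5, led by Saa3, at 86.8 CPM in cluster 2 and at 65.5 CPM in cluster 7, whose cells had medians of 2744, 3537 and 4898 UMIs. It was at 8.88 CPM (7.18 to 10.9) in cluster 4, 11.8 CPM in cluster 8 and 1.75 CPM in cluster 14, with medians of 16059, 11340 and 23167 UMIs. Cluster 5 counted as neutrophil-like only with the naming reference used here, not with markers against the pooled other cells. The shallow clusters 2, 5 and 7 held 355, 371 and 283 vehicle cells but 3, 0 and 9 high dose cells. Library depth therefore moved with Nlrp3 across clusters, and its part in the result was not tested. Across the spleen-labelled library Nlrp3 was at 156 CPM in cluster 15, 115 CPM in cluster 0 and 86.7 CPM in cluster 12, against 10.2 CPM in cluster 3 and 9.46 CPM in cluster 10.

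Within cluster 4 the groups did not separate by Nlrp3. The levels there were 7.56 CPM in vehicle (31 UMIs), 10.9 CPM in low dose (37) and 8.41 CPM in high dose cells (26), a high to vehicle log2 ratio of 0.15 (-0.66 to 0.95). Within cluster 3 of the spleen-labelled library they were 8.96 (6 UMIs), 10.5 (7) and 11.1 CPM (9), a ratio of 0.31 (-1.34 to 2.08). These intervals did not reach the class ratios of -1.96 and -1.85, but both clusters were among those with low Nlrp3. The clusters with high Nlrp3 held too few high dose cells to compare, and the part of the cluster mix was not tested.

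Within both clusters Casp4 was higher at the high dose. Over the class it was lower in the liver-labelled library, and its class interval in the spleen-labelled library held 0. Casp4 was at 67.8 CPM in vehicle and 83.2 CPM in high dose cells of cluster 4, a ratio of 0.29 (0.04 to 0.54), and at 70.2 and 104 CPM in cluster 3, a ratio of 0.56 (0.03 to 1.11). Casp1 had ratios of 0.37 (0.03 to 0.70) and 0.50 (-0.20 to 1.23), and its class ratios had intervals that held 0 in both libraries. Pycard (0.11 and -0.22), Gsdmd (-0.11 and -0.41) and Gsdme (-0.04 and -0.06) had intervals that held 0 in both clusters.

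Casp4, Casp1, Gsdmd, Gsdme, Pycard and Aim2 differed less than Nlrp3 between clusters of the liver-labelled library. Casp4 ranged from 43.3 CPM in cluster 14 to 282 CPM in cluster 5, in the same order of the outermost clusters as Nlrp3. Casp1 ranged from 26.9 CPM in cluster 14 to 78.1 CPM in cluster 5 and Gsdmd from 24.9 CPM in cluster 14 to 71.8 CPM in cluster 7. Gsdme had another pattern, with its lowest level in cluster 5 (29.6 CPM, 21.7 to 39.4) and its highest in cluster 8 (72.0 CPM). Pycard stayed between 49.0 and 79.5 CPM. Aim2 was highest in cluster 5 (30.9 CPM, 49 UMIs) and lowest in cluster 4 (2.83 CPM, 30 UMIs).

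**Figure D4:**
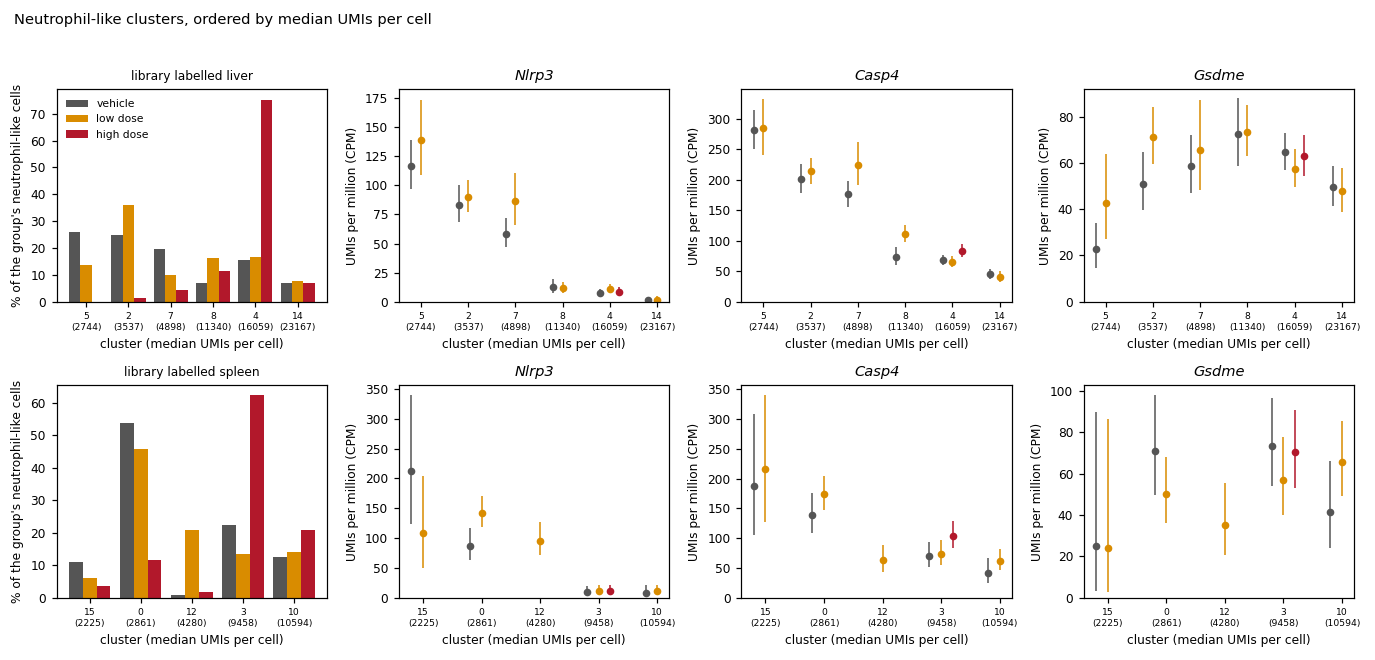
Neutrophil-like clusters of each library (rows), ordered by the median UMIs per cell written under the cluster number: bars show the percent of each hashtag group's neutrophil-like cells, and points the CPM of Nlrp3, Casp4 and Gsdme by group with exact 95% Poisson intervals, for groups of at least 30 cells. High dose cells gather in cluster 4 (75.3%) and cluster 3 (62.2%), where Nlrp3 is at 8.41 and 11.1 CPM in them.

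Between the libraries, no member was called in vehicle neutrophil-like cells, where 14.2% of 8996 genes were called in either direction and 8 members were tested. The log2 ratio of the spleen-labelled library to the liver-labelled library was 0.40 (0.01 to 0.77) for Nlrp3 and -0.32 (-0.57 to -0.08) for Casp4. The ratios of Pycard (-0.01, -0.30 to 0.26) and Casp1 (0.00, -0.35 to 0.34) were near 0. At the low dose Nlrp3 had a ratio of 0.95 (0.70 to 1.21) and Pycard of 0.69 (0.50 to 0.88). Tissue and library cannot be told apart in this comparison.

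In other cell classes few of the members with enough UMIs differed between the high dose and the vehicle. Monocyte-like cells were not compared, because their high dose cells, 26 (liver-labelled library) and 39 (spleen-labelled library), were under the minimum of 50. In macrophage-like cells of the liver-labelled library only Pycard and Casp1 reached 20 UMIs, even over all 3 groups (94 and 30). No member was called in T cell-like, B cell-like or macrophage-like cells, where 2.74%, 4.17% and 13.3% of all genes were called in either direction in the liver-labelled library, and 6.76% in macrophage-like cells of the spleen-labelled library. Nlrp3 in those macrophage-like cells was at 39.0 CPM in the vehicle, 56.6 CPM in the low dose and 40.4 CPM in the high dose group, a high to vehicle log2 ratio of 0.05 (-0.59 to 0.73). Unlike the neutrophil-like class, macrophage-like cells thus had overlapping Nlrp3 levels in the vehicle and high dose groups, although the difference between the class ratios was not tested. In T cell-like cells of the liver-labelled library Pycard was at 114 and 141 CPM, a ratio of 0.31 (0.13 to 0.50). In B cell-like cells of that library Casp1 was at 53.8 and 30.6 CPM, a ratio of -0.81 (-1.32 to -0.33). At the low dose 40.6 CPM was measured. Cluster 20 of this class held 46 vehicle cells and 0 high dose cells, and the part of this mix was not tested.

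Granulocyte progenitor-like cells of the spleen-labelled library had 19 Nlrp3 UMIs over 131 vehicle cells but only 1 over 59 cells of the high dose group (6.51 and 0.708 CPM), a log2 ratio of -3.20 (-8.58 to -0.55). This was the only member called there, in either direction, among 7 tested, with 13.3% of all genes called. The class joined clusters 8 and 9, which held 64 and 67 of the vehicle cells but 44 and 15 of the high dose cells, and the part of this mix in the values was not tested. Pycard was lower in the same cells by less than 2-fold, at 183 and 111 CPM (-0.72, -0.98 to -0.46). In B cell-like cells of the liver-labelled library Nlrc4 had 31 UMIs at the low dose against 15 in the vehicle group. The ratio was 1.18 (0.24 to 2.17). The share of all genes called there is not given, so this is a value only. Of those low dose cells 146 of 552 were in cluster 18, which held 1 cell from each of the other groups. B cell-like cells of the spleen-labelled library had 1 Nlrc4 UMI at the low dose and 1 in the vehicle group.

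Genes that act around the inflammasome were listed by role, with 49 of 52 listed genes found in the matrices. Their counts stand beside the 18.0% of all genes called lower at the high dose in the liver-labelled library and the 7.01% in the spleen-labelled library, and nothing particular to a list is read from them. Of the priming and triggering genes (Toll-like receptors, guanylate-binding proteins and channels), 4 of 11 tested were lower at the high dose and 0 higher in neutrophil-like cells of the liver-labelled library, with a median log2 ratio of -0.90, and 2 of 9 were lower in the spleen-labelled library with a median of -0.36. Of the other sensors, 2 of 5 and 0 of 4 were lower and 0 higher. Of the genes that restrain the pathway, 0 of 5 were called in the liver-labelled library and 1 of 5, Dpp9, was higher in the spleen-labelled library. The genes of gasdermin cleavage and membrane rupture or repair had 2 of 8 lower and 1 higher (Ctsg) and 2 of 7 lower. None of the 8 other gasdermin genes reached 20 UMIs in these groups.

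The listed genes past 2-fold in the same direction in both libraries were all lower at the high dose. Il1b, the cytokine processed by caspase-1, was at 672 CPM in the vehicle and 149 CPM in the high dose group of the liver-labelled library (-2.17, -2.29 to -2.05) and at 2085 and 518 CPM in the spleen-labelled library (-2.01, -2.13 to -1.89). Ninj1, which carries out plasma membrane rupture, was at 55.2 and 10.6 CPM (-2.38) and at 62.4 and 21.5 CPM (-1.53). Elane, neutrophil elastase and a gene of early granulocytes, had 206 and 5 UMIs (-3.76) and 19 and 4 UMIs (-1.87). Of the 206 vehicle UMIs, 190 came from cluster 14 with 101 vehicle cells, a cluster led by the granule genes Camp, Ltf and Ngp. That cluster held 7.06% of the vehicle and 7.07% of the high dose neutrophil-like cells, the latter 14 cells. Its low dose cells had 27 Elane UMIs, a log2 ratio to the vehicle of -2.54 (-3.18 to -1.96). Its high dose cells were too few to compare, and the part of the cluster mix was not tested. Gbp3, a guanylate-binding protein, had 88 and 10 UMIs (-1.53) and 20 and 7 UMIs (-1.14, -2.63 to 0.16).

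Within the stefin-led clusters the values of Il1b and Ninj1 differed from those over the class. Cluster 4 held 225 Il1b UMIs in its vehicle cells and 459 in its high dose cells, a ratio of 1.44 (1.20 to 1.67). In cluster 3 it had 167 and 247 UMIs, a ratio of 0.29 whose interval reached 0. Ninj1 had ratios of -0.13 (-0.80 to 0.51) and -0.41 (-1.81 to 0.96). Elane stayed more than 2-fold lower there, with 9 and 3 UMIs (-1.18, -3.70 to 0.83) and 7 and 4 UMIs (-1.08, -3.30 to 0.89), numbers too small to separate the groups. Gbp3 had 6 and 7 UMIs in cluster 4 (0.63, -1.17 to 2.48) and 0 and 4 in cluster 3. Il1b was thus higher, not lower, at the high dose within cluster 4. At the low dose Il1b was higher over the whole class in both libraries (0.81 and 0.75), and Gbp3 was called lower in both (-1.88 and -1.04).

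Across 39 units of 1 cell class, group and library, the log2 level of Nlrp3 was most like that of Il1b (Pearson's r = 0.92), Sirpb1c (0.89) and Cd14 (0.88) among 8383 genes. The units share libraries and depth, so the values are a description. Pycard was most like Emp3 (0.94), Casp1 like Dleu2 (0.82), Casp4 like Pet100 (0.90), Gsdmd like Atp6v1b2 (0.90), Gsdme like R3hdm4 (0.85) and Aim2 like Snrnp70 (0.94). Among the members themselves the highest values joined Casp1 and Gsdmd (0.73), Casp4 and Gsdmd (0.71), and Casp1 and Casp4 (0.70). Nlrp3 had lower values with its partners, 0.18 with Pycard and 0.33 with Casp1, and was lowest with Aim2 at -0.26.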

How the data were processed

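Single-cell RNA of 3 hashtag groups was measured in 2 droplet libraries. The deposited matrices held UMI counts of genes and hashtags for each filtered barcode, which the authors made by Cell Ranger (5.0.0 in the matrix header, 6.0.0 in the submitters' processing notes) on mm10, without normalization. Every barcode had at least 500 gene UMIs.

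Hashtags were called with HTODemux (Seurat 5.3.0, quantile 0.99), and barcodes with 1 hashtag were kept: in the liver-labelled library 3103 for vehicle, 3194 for the low and 2138 for the high dose, and 822, 1301 and 865 in the spleen-labelled library. More than 1 hashtag was found on 616 and 215 barcodes, and none on 540 and 1627. Clustering was done per library with SCTransform (sctransform 0.4.2), 30 principal components and a resolution of 0.8 in R 4.3.3, with the members and the listed genes left out of the variable features. A cluster was named from at least 3 fixed markers at a log2 fold of 1 over the mean of the other clusters (10 CPM added) in at least 20% of its cells, unless markers of another list outnumbered its own among the leading 10 genes. This reference was chosen after member values were seen. Unnamed clusters held 5.25% and 2.91% of the cells. Scrublet (scanpy 1.11.5) marked 248 of 9591 and 1 of 4830 barcodes. It is treated as not having worked in the spleen-labelled library, and doublets within a hashtag were removed in an alternative only.

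UMIs were summed per class and group, or per class over all groups, and scaled to CPM. Intervals at 95% were exact Poisson for levels, exact conditional binomial for ratios and Clopper-Pearson for shares (Python 3.11.15, numpy 2.4.6, scipy 1.17.1, pandas 2.3.3). For a count of 0 the limit is that of 3 counts. For shares of cells with a UMI each cell was thinned once to 500 UMIs with a fixed seed. Likeness to other genes was Pearson's r of log2(CPM + 1) over genes with at least 200 UMIs in each library, which Nlrc4 and Nlrp1b did not reach. The ratio and its interval were tested on simulated data.

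All 9 members are named, and of the 6 gene lists those genes past 2-fold in both libraries in 1 direction. The members, lists and comparisons were chosen with earlier results of these data known. With 1 pooled sample per group and library no test was run. The alternatives changed hashtag calling, filters, clustering, scaling, thresholds and thinning. The naming reference, UMIs per cell and leaving out shared barcodes or clusters mostly of 1 group were alternatives chosen after seeing the data. The values of 1 listed gene are not reported here. Other experiments of the study were not analysed here.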

Additional observations from a re-analysis of the deposited data

How the results depend on the processing

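No paired analysis was possible because each group was 1 pooled sample per library, and for the same reason no replicate could be left out. The log2 ratio of Nlrp3 at the high dose against the vehicle in neutrophil-like cells stayed below 0 under all 14 settings in each library, from -2.96 (mean over cells) to -0.71 (UMIs per cell) in the liver-labelled library and from -2.18 to -0.81 in the spleen-labelled library. In the latter it was -0.97 when cells needed at least 200 genes and less than 10% mitochondrial UMIs and -0.88 when granulocyte progenitor-like and monocyte-like cells were added, so that the call was lost, and in UMIs per cell it was lost in both libraries. For Aim2 in the liver-labelled library the direction reversed in UMIs per cell (0.046), and for Casp4, Casp1 and Gsdmd it turned there as well. The number of members past 2-fold at the high dose in the liver-labelled library was 1 instead of 2 with a minimum of 100 UMIs, MULTIseqDemux, resolution 0.4, log-normalization, the added cell classes, or markers against the pooled other cells. In UMIs per cell it was 3 (Pycard, Casp1 and Gsdme), all higher. In the spleen-labelled library it was 4 with no minimum of UMIs, 1 with MULTIseqDemux or resolution 1.6, 1 in UMIs per cell (Gsdme, higher), and 0 with a minimum of 100 UMIs, the filter on genes and mitochondrial UMIs, or the added cell classes. At the low dose it was 1 instead of 0 at 1.5-fold in the liver-labelled library. In the spleen-labelled library the low dose number was 3 at 1.5-fold. It was 1 with no minimum of UMIs, the dominant hashtag, that filter, resolution 0.4 or the pooled reference. In UMIs per cell, depth alone shifted every gene at the high dose by 1.24 (liver-labelled library) and 1.04 (spleen-labelled library), already past 2-fold. The shares of all genes called under these settings are not given, so these counts are values only and not a result about the members. The share of vehicle neutrophil-like cells with a Nlrp3 UMI was 6.26% (liver-labelled library) and 9.51% (spleen-labelled library) after thinning to 1000 UMIs and 21.4% and 19.6% without thinning, and the high dose share without thinning was 13.1% and 9.91%. The causes were not tested. The depth leaves differences in Nlrc4 and Nlrp1b between groups undetectable unless they are large.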

Other observations

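Barcodes without a hashtag call belong to no group. They held 5 Nlrp3 UMIs in 540 barcodes (1.99 CPM) in the liver-labelled library and 23 in 1627 (4.93 CPM) in the spleen-labelled library. Casp4 was at 13.6 and 20.6 CPM and Pycard at 34.7 and 63.8 CPM in the same barcodes, whose median depth was 1785 and 1803 UMIs.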
